A study of Homo sapiens with 8 samples.

Results

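TXNIP, its α-arrestin relatives ARRDC4 and ARRDC3, and the glucose-sensing transcription factor genes MLXIP, MLX and MLXIPL were examined across RNA-seq libraries of 2 human colorectal cancer cell lines. The set of 6 genes was chosen by a measured value, the level of TXNIP, which differed between the RKO libraries with and without CYP1B1 overexpression. The set makes up 6 of the 16829 genes in the deposited tables, and all 6 had enough counts to be tested, as did 14157 genes in all. Since RKO libraries chose the set, the members' values in comparisons of RKO groups are given as a description, without a test. The tests in SW480 compare SW480 groups, but their estimate of spread is shared with the RKO libraries.

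TXNIP encodes thioredoxin-interacting protein, an α-arrestin that binds thioredoxin and restrains glucose uptake by promoting internalisation of glucose transporters. MLXIP encodes MondoA, which pairs with MLX, moves to the nucleus when glucose 6-phosphate accumulates, and binds paired E-box sequences upstream of TXNIP and ARRDC4. MLXIPL encodes ChREBP, a related MLX partner best known from liver and fat, and ARRDC3 encodes an adaptor for NEDD4-family ubiquitin ligases at cell surface receptors.

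Knockdown of CYP1B1 by a hairpin in SW480 cells (shCYP1B1) was compared with a non-targeting hairpin in the same line (shNT), and CYP1B1 overexpression in RKO cells with RKO control cells. Each of the 4 groups had 2 libraries, and the genotype label of both control groups is normal CYP1B1. CYP1B1 is a cytochrome P450 that oxidises oestradiol and polycyclic hydrocarbons. Both lines were kept at 37 °C and 5% CO2, in DMEM containing 10% serum, and lentivirus was used in both according to the labels. A virus treatment time is also given in the labels, with the unit hpf, which could not be interpreted. The labels give neither the glucose concentration of the medium nor the time since it was last changed, and they do not state which vector the RKO control cells carried. The knockdown rests on 1 hairpin, and it is not stated whether replicates were separate cultures. The p-values therefore reflect the spread among these samples alone, part or all of which may be technical.

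Total counts were between 31550173 and 34921085 per library. CYP1B1 followed the labels, at 443 and 526 CPM (read counts scaled to the library total) in RKO CYP1B1 cells against 0.697 and 0.726 CPM in RKO control cells, and at 0.354 and 0.290 CPM in shCYP1B1 cells against 1.43 and 2.20 CPM in shNT cells. In SW480 these levels rest on 12 and 10 reads in shCYP1B1 cells and 50 and 76 reads in shNT cells, and CYP1B1 fell by 2.44 on the log2 scale (SE 0.31, adjusted p = 6.43e-05, edgeR). The RKO CYP1B1 replicates stood apart from each other more than those of any other group, with a chi-square per gene of 42.7, against 4.65 to 6.53 in the other 3 groups. Of epithelial markers, EPCAM was at 14.1 and 14.6 FPKM in shCYP1B1 cells and 84.0 and 84.7 FPKM in shNT cells. In RKO it was at 1.13 to 1.31 FPKM, with KRT20 at 0 in all 4 libraries. The 11 colon epithelial markers summed to 3260 to 3284 FPKM in shCYP1B1 cells and 3019 to 3133 FPKM in shNT cells, and to 167 to 177 FPKM in RKO CYP1B1 cells and 154 to 159 FPKM in RKO control cells. Most of each sum came from KRT8 and KRT18, which were higher in shCYP1B1 than in shNT cells, as were CDH1 and GPA33. KRT19, CDX2 and VIL1 were lower in shCYP1B1 cells, as EPCAM was. KRT20, CDX1 and LGALS4 had at most 12 counts in any library. In RKO almost the whole leukocyte marker sum came from CD68, at 407 and 393 FPKM in RKO CYP1B1 cells and 461 and 419 FPKM in RKO control cells. CD68 was at 12.7 and 13.8 FPKM in shCYP1B1 cells and 3.12 and 4.02 FPKM in shNT cells. The part of these markers in the results was not tested.

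The stretches upstream of TXNIP and ARRDC4 are shown because these are the textbook MondoA targets in the set. They come from RefSeq on GRCh38.p14, run 5′ to 3′ along the gene's own strand, and hold the 250 bases before the annotated start, at chr1:145996580-145996829 on the minus strand for TXNIP and chr15:97960453-97960702 on the plus strand for ARRDC4. Capitals mark the 3 motifs searched on both strands, the E-box CACGTG, the spaced element of 2 copies of CACGNG with 5 bases between them, and the CCAAT box, which reads ATTGG where it lies on the other strand.
TXNIP: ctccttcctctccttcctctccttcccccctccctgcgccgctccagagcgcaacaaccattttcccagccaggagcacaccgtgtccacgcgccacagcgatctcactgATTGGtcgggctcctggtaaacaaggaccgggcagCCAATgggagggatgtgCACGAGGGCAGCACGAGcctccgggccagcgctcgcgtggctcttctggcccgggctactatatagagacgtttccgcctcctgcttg
ARRDC4: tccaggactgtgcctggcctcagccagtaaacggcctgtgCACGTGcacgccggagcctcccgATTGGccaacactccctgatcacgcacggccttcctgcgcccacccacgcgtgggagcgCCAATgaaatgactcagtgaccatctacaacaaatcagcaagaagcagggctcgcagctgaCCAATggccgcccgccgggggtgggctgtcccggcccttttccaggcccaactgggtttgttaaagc

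In the window from 250 bases before to 50 bases after its start, TXNIP held the spaced element at positions -88 to -72, with 2 CCAAT boxes just upstream of it. The letters CACGTG were not in that window. Of 35116 promoter windows of this length, 0.057% held the spaced element, 20 windows in all. ARRDC4 instead held CACGTG at positions -210 to -205 and 3 CCAAT boxes. CACGTG was in 7.26% of all windows and CCAAT in 34.6%. MLX held CACGTG at -50 to -45 with a CCAAT box at -66 to -62, and MLXIP held a CCAAT box at -76 to -72. Of the 2 windows listed for ARRDC3, 1 held a CCAAT box, at -241 to -237, and the MLXIPL window held none of the 3 motifs. All 6 genes matched the table, with 8 windows, and the second TXNIP window held none of the motifs. A match is a description of letters and not of a bound site.

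In SW480 cells, the members that moved most were the 2 known as glucose-responsive arrestins. TXNIP measured 576.9 and 583.6 FPKM (fragments scaled to gene length and library size, as deposited) in shCYP1B1 cells, against 29.6 and 29.8 FPKM in shNT cells. Both shCYP1B1 libraries lay far above both controls, and within each pair the values almost coincided. TXNIP rose to 580 ± 4.75 FPKM in shCYP1B1 cells against 29.7 ± 0.133 FPKM in shNT cells (SD, n = 2 each), or 20.1-fold. On the log2 scale the change was 4.33 ± 0.40 (SE), with an adjusted p of 7.08e-06 in edgeR's quasi-likelihood test. That SE rests on a spread shared with the RKO libraries, the uneven RKO CYP1B1 pair included. With the SW480 libraries alone the change was 4.33 with an SE of 0.037. The rise was the 45th largest of the 14157 genes tested, and the 5th largest among the 11087 genes that averaged at least 5 CPM. In bulk RNA a change in every cell and a change in the share of expressing cells cannot be told apart.

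The counts behind these levels were 62002 and 63840 reads in shCYP1B1 cells and 3284 and 3273 reads in shNT cells. TXNIP took 0.183% and 0.185% of all counts in shCYP1B1 cells, and 0.0094% and 0.0095% in shNT cells. By FPKM it was the 84th most abundant of 16829 genes in both shCYP1B1 libraries, and ranked 2352 and 2343 in the shNT libraries. TXNIP lies on chromosome 1 at 145992435 to 145996600 on the minus strand of GRCh38, with 8 exons in its principal GENCODE transcript.

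ARRDC4, an α-arrestin that glucose induces as it does TXNIP, lies on chromosome 15 at 97960698 to 97973838 on the plus strand. It measured 10.5 and 12.01 FPKM in shCYP1B1 cells and 2.74 and 2.33 FPKM in shNT cells. The groups did not overlap. ARRDC4 rose in shCYP1B1 cells by 2.19 on the log2 scale (SE 0.17, adjusted p = 2.09e-06, edgeR), 4.58-fold. The FPKM of TXNIP was 54.7 and 48.6 times that of ARRDC4 in shCYP1B1 cells and 10.8 and 12.8 times in shNT cells.

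ARRDC3, on the minus strand of chromosome 5 at 91368724 to 91383359, measured 6.52 and 6.54 FPKM in shCYP1B1 cells and 3.33 and 3.58 FPKM in shNT cells. It rose by 0.96 (log2, SE 0.17, adjusted p = 6.37e-04, edgeR), 1.95-fold. It overlaps the antisense gene ARRDC3-AS1 by 145 exon bases, and since the use of strand in counting is not given in the sources used here, their reads cannot be told apart. The 3 arrestins thus rose by unequal amounts, in the order TXNIP, ARRDC4, ARRDC3.

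The transcription factor genes moved little in SW480 cells. MLXIP measured 8.87 and 8.18 FPKM in shCYP1B1 cells and 10.2 and 10.9 FPKM in shNT cells. Its log2 fold change was -0.26 (SE 0.17, 95% interval -0.63 to 0.11) and did not pass the test (adjusted p = 0.213, edgeR). The libraries of the groups did not overlap, and the RKO CYP1B1 libraries, which set part of the shared spread, decided this call: without both of them it had the same size and an adjusted p of 3.50e-04 in edgeR.

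MLX, the shared partner of MondoA and ChREBP, measured 38.6 and 39.9 FPKM in shCYP1B1 cells and 30.6 and 30.5 FPKM in shNT cells. It rose by 0.40 (log2, SE 0.07, adjusted p = 7.43e-04, edgeR), 1.32-fold, with no overlap. MLX shares 770 exon bases with PSMC3IP on the opposite strand, with the same limit on its counts. MLXIPL measured 4.56 and 4.76 FPKM in shCYP1B1 cells and 4.98 and 4.43 FPKM in shNT cells, and the groups overlapped. Its log2 fold change was 0.03 (SE 0.22, 95% interval -0.44 to 0.50, adjusted p = 0.922, edgeR).

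Of the 6 members, 4 were called higher in shCYP1B1 cells (TXNIP, ARRDC4, ARRDC3 and MLX) and 0 lower at an adjusted p under 0.05 in edgeR. The count of lower members was also 0 at an unadjusted p under 0.05 and in DESeq2. It did not stay at 0 in edgeR with the SW480 libraries alone or without both RKO CYP1B1 libraries, where MLXIP was called lower. Among all 14157 genes, 25.3% were called higher, 25.3% lower and 50.6% in either direction, so a call by itself was common. By size, ARRDC4 had the 72nd largest rise and ARRDC3 the 635th among the 11087 genes that averaged at least 5 CPM. The median log2 fold change over all genes was -0.0037.

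**Figure D1:**
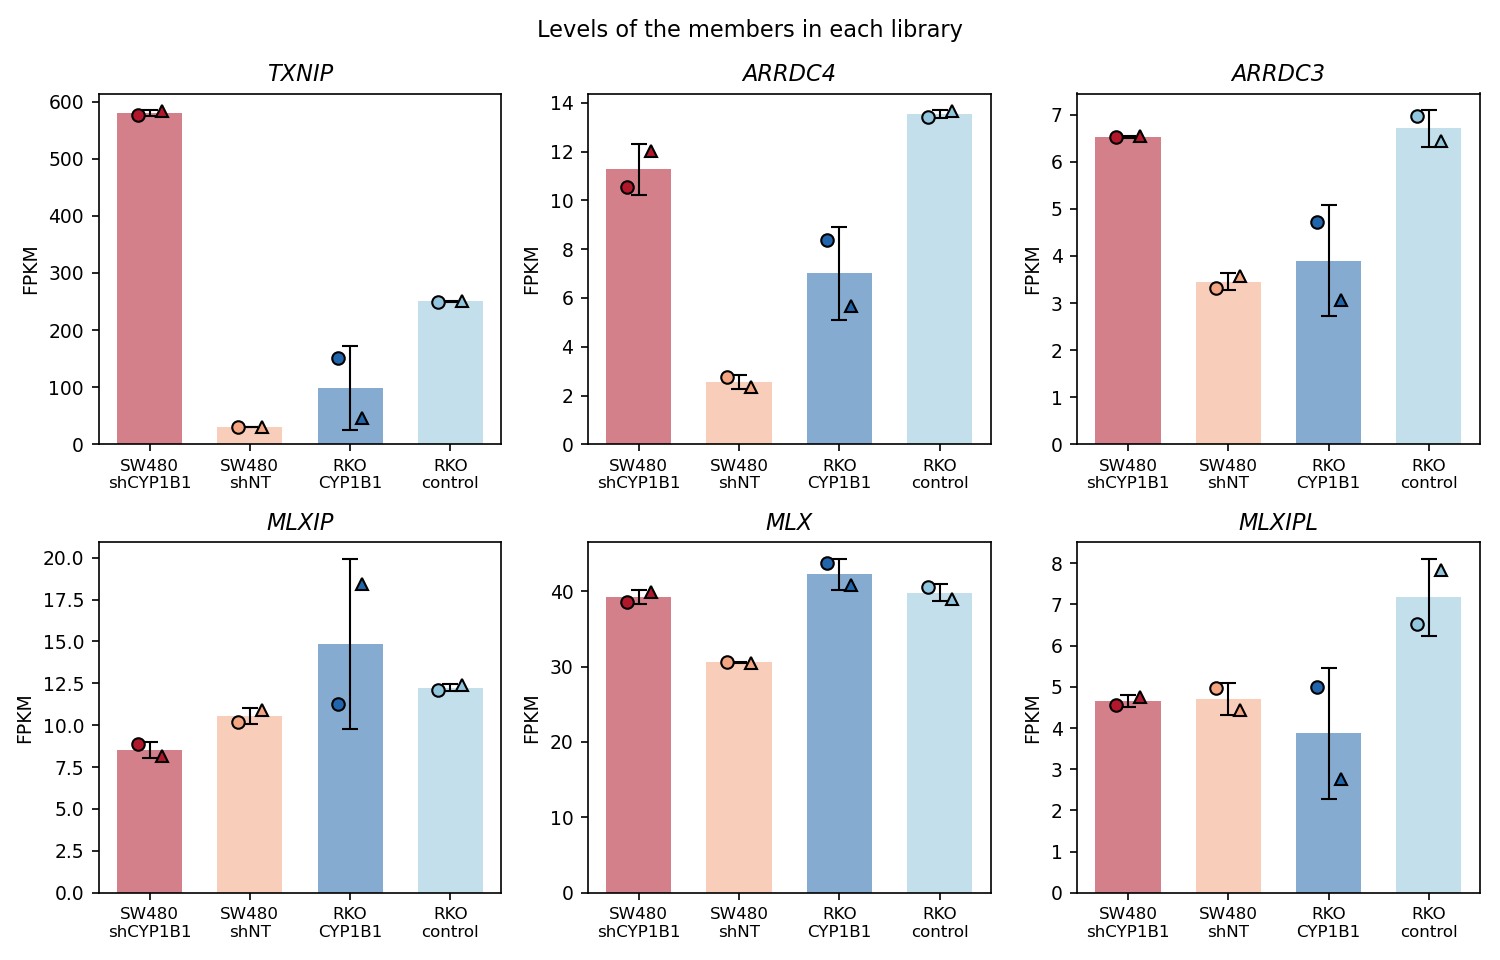
FPKM of each member (vertical axis) in the 4 groups, with SW480 shCYP1B1, SW480 shNT, RKO CYP1B1 and RKO control from left to right. Bars are means, error bars the SD of 2 libraries, and circles and triangles replicates 1 and 2. TXNIP stands at 576.9 and 583.6 FPKM in shCYP1B1 cells and at 29.6 and 29.8 FPKM in shNT cells, and the RKO CYP1B1 replicates lie apart at 150.6 and 46.0 FPKM.

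In RKO cells the values chose the set and are described only. TXNIP measured 150.6 and 46.0 FPKM in RKO CYP1B1 cells against 249.6 and 250.5 FPKM in RKO control cells. Both overexpression libraries lay below both controls, but they differed from each other 3.26-fold, while replicates of the other groups differed by 1.00 to 1.01-fold. That gap was the 13th largest of the 10272 genes that averaged at least 5 CPM in the RKO CYP1B1 group, 58 of which differed over 2-fold. Relative to the control mean in TMM-scaled CPM, TXNIP stood at 60.9% in replicate 1 and 18.7% in replicate 2, and the log2 fold change was -1.33 (SE 0.36). That SE rests on a spread shared with the other groups, whose replicates lay far closer, so it understates the gap between these 2 libraries. In DESeq2 the SE was 0.53. The library with less TXNIP had 526 CPM of CYP1B1 and the other 443 CPM, a pair too small to relate the 2 genes.

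The other arrestins lay in the same order. ARRDC4 measured 8.36 and 5.66 FPKM in RKO CYP1B1 cells and 13.4 and 13.7 FPKM in RKO control cells, or 62.4% and 42.3% of the control mean (log2 fold change -0.93, SE 0.16). ARRDC3 measured 4.73 and 3.07 FPKM in RKO CYP1B1 cells and 6.98 and 6.43 FPKM in RKO control cells, or 71.3% and 46.4% (-0.76, SE 0.17). In replicate 1 TXNIP had 18.01 times the FPKM of ARRDC4, near the 18.6 and 18.3 of the controls, and in replicate 2 it had 8.14 times.

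MLXIPL measured 4.99 and 2.75 FPKM in RKO CYP1B1 cells and 6.52 and 7.84 FPKM in RKO control cells, 70.3% and 38.9% of the control mean. MLXIP measured 11.2 and 18.4 FPKM in RKO CYP1B1 cells and 12.1 and 12.4 FPKM in RKO control cells, so that replicate 1 lay below both controls and replicate 2 above them. MLX measured 43.7 and 40.8 FPKM in RKO CYP1B1 cells and 40.6 and 39.0 FPKM in RKO control cells, 111% and 104% of the control mean. In replicate 2, then, the 3 arrestins and MLXIPL were lower and MLXIP higher than in replicate 1, while the MLX replicates differed 1.07-fold. A technical difference between these libraries was not tested.

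**Figure D2:**
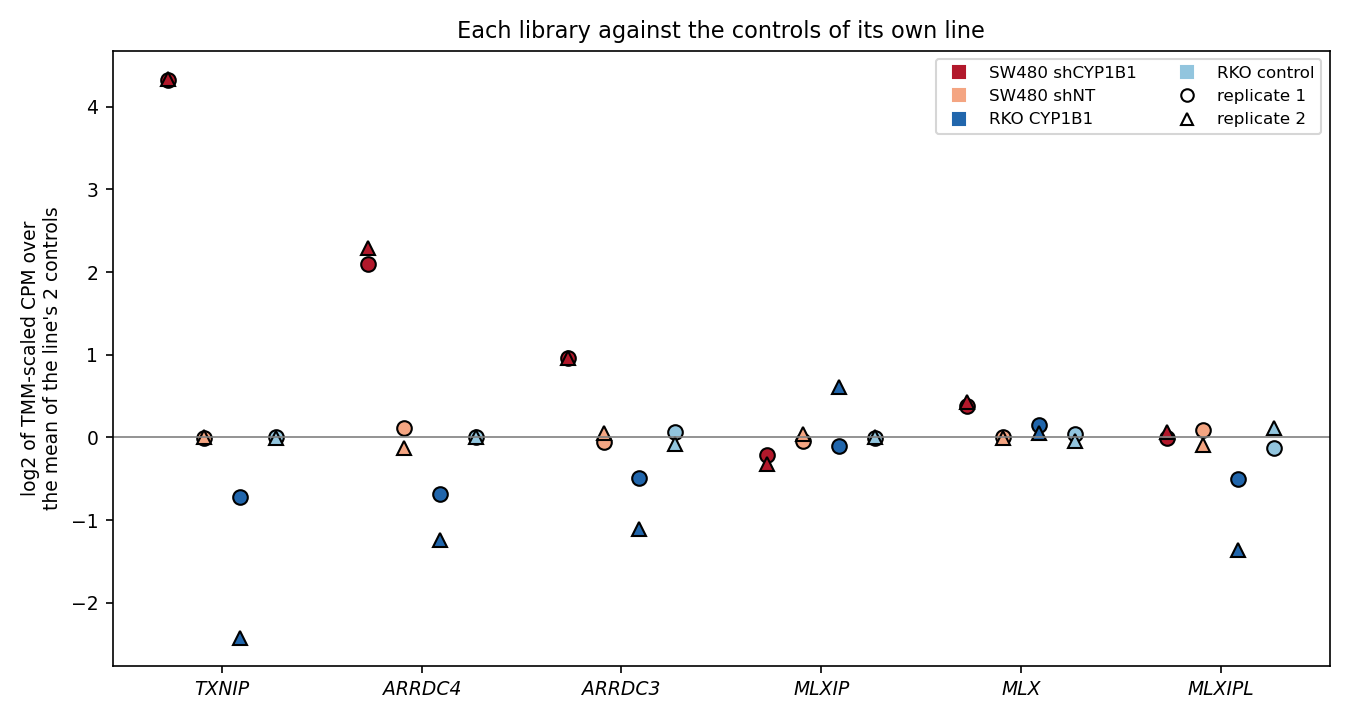
Log2 of TMM-scaled CPM of each library over the mean of the 2 control libraries of its own line (vertical axis), for the 6 members, with groups left to right as in the legend and circles and triangles for replicates 1 and 2. TXNIP lies at 4.32 and 4.34 in shCYP1B1 cells and at -0.72 and -2.42 in RKO CYP1B1 cells, and MLX stays within 0.43 of its controls in all libraries.

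Across the 4 groups TXNIP ran from 580 FPKM in shCYP1B1 cells through 250 FPKM in RKO control cells and 98.3 ± 73.9 FPKM in RKO CYP1B1 cells to 29.7 FPKM in shNT cells (SD, n = 2). The last of these steps was smaller than the spread of the RKO CYP1B1 pair. ARRDC4 was highest in RKO control cells, at 13.5 FPKM, followed by shCYP1B1 cells at 11.3 FPKM, RKO CYP1B1 cells at 7.01 FPKM and shNT cells at 2.54 FPKM, each step exceeding the larger SD of its neighbours. ARRDC3 was alike in RKO control cells (6.71 FPKM) and shCYP1B1 cells (6.53 FPKM) within their spread, and likewise in RKO CYP1B1 cells (3.90 FPKM) and shNT cells (3.46 FPKM). MLX averaged 42.2 FPKM in RKO CYP1B1 cells, 39.8 FPKM in RKO control cells, 39.2 FPKM in shCYP1B1 cells and 30.6 FPKM in shNT cells, of which the middle pair did not differ beyond their spread. MLXIPL averaged 3.87 to 7.18 FPKM and MLXIP 8.53 to 14.8 FPKM, and MLXIP was above MLXIPL in every library, by 1.58 to 6.70 times.

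SW480 shNT cells were also set against RKO control cells to compare the lines at baseline. The RKO control libraries are part of the comparison that chose the set, and both groups are the controls of the other comparisons, so these values too are a description without a test, and the line and the control vector cannot be told apart. TXNIP stood at 29.7 FPKM in shNT cells, against 250 FPKM in RKO control cells, 8.16-fold lower (log2 difference -3.03, SE 0.38). The log2 difference was -2.37 for ARRDC4 (SE 0.17), -0.91 for ARRDC3 (SE 0.17) and -0.34 for MLX (SE 0.07). For MLXIPL it was -0.56 (SE 0.21) and for MLXIP -0.17 (SE 0.17). The median over all genes was 0.08.

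Genes whose pattern most resembled that of TXNIP were sought by Pearson correlation of log2(CPM + 1) over the 8 libraries, among 6255 genes that averaged 5 CPM or more and spanned at least 1 log2 unit. The libraries share 2 lines and their controls, so the coefficients describe likeness and carry no p. The nearest were LAMB3 (0.993), a laminin chain, BNIP3L (0.985), a mitophagy receptor, FAM131A (0.984), RAB5A (0.982), an early endosome GTPase, and PIM1 (0.981), a serine/threonine kinase. Among the members ARRDC3 reached 0.940, ARRDC4 0.909, MLX 0.711, MLXIPL 0.431 and MLXIP -0.50.

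After each library was taken relative to the control mean of its line, SAT1 (0.9997), which acetylates polyamines, CCNB1IP1 (0.9989), DUSP5 (0.9987), a nuclear ERK phosphatase, UFM1 (0.9987), a ubiquitin-like modifier, and LAMB3 (0.9985) came nearest, with ARRDC4 at 0.994 and ARRDC3 at 0.966. SAT1 measured 315.6 and 322.1 FPKM in shCYP1B1 cells and 69.8 and 72.8 FPKM in shNT cells. It measured 44.0 and 25.5 FPKM in RKO CYP1B1 cells and 58.2 and 60.7 FPKM in RKO control cells. SAT1 was lower in replicate 2 as TXNIP was, a likeness for which it was picked. DUSP5 measured 94.7 and 94.0 FPKM in shCYP1B1 cells and 48.4 and 45.2 FPKM in shNT cells. In RKO CYP1B1 cells it measured 153.8 and 113.6 FPKM, against 175.3 and 174.3 FPKM in RKO control cells.

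**Figure D3:**
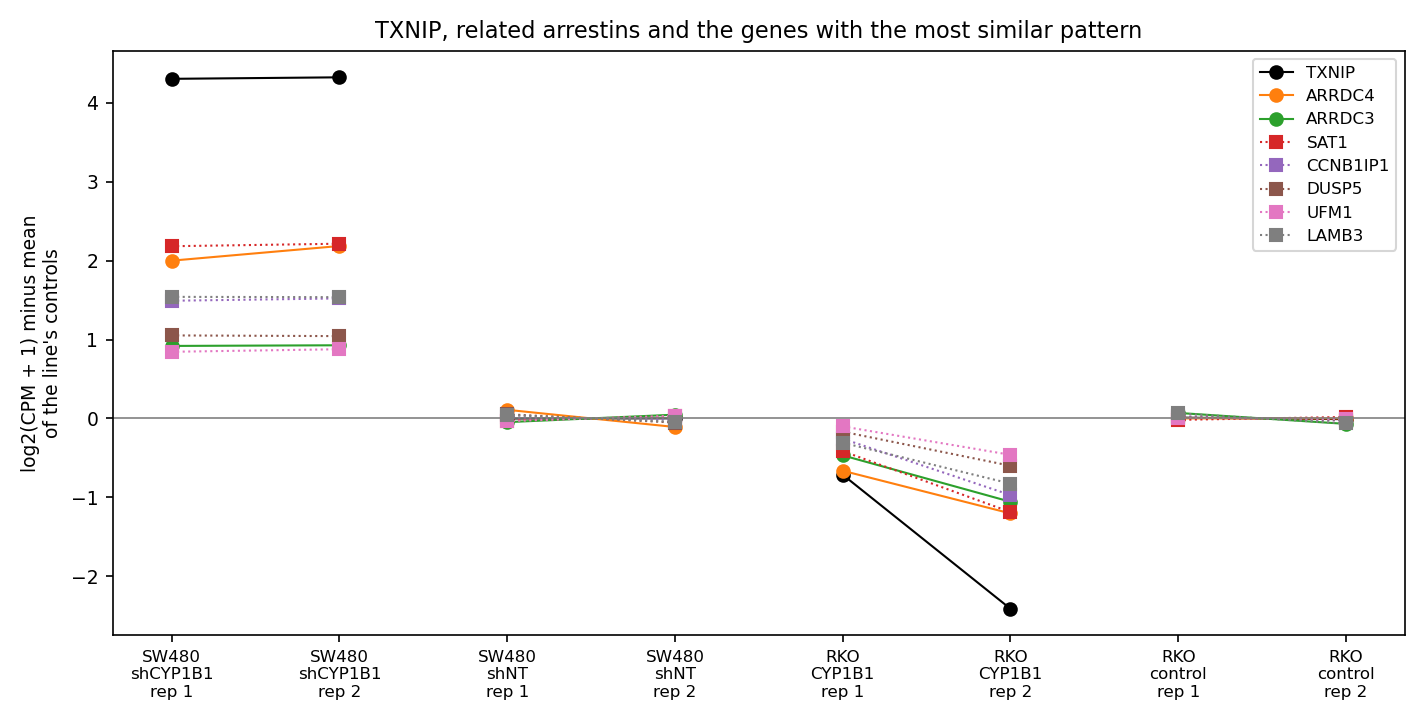
Log2(CPM + 1) of each library minus the mean of its line's control libraries (vertical axis) for TXNIP, ARRDC4, ARRDC3 and the 5 genes whose pattern was most alike, with the 8 libraries on the horizontal axis and lines joining replicates of a group. All 8 genes lie above 0 in both shCYP1B1 libraries and below 0 in both RKO CYP1B1 libraries, lower in replicate 2 than in replicate 1, with TXNIP the farthest from 0. The 5 genes were picked for this likeness to TXNIP in the same libraries.

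Of 9 tested genes of the MYC, MAX and MLX network outside the set, 7 were called higher in shCYP1B1 cells and 1 lower, with a median log2 fold change of 0.76. Over all genes 25.3% were called in each direction, 50.6% in either, and the median was -0.0037. MNT, a transcriptional repressor that pairs with MAX or MLX, rose to 10.1 FPKM in shCYP1B1 cells against 5.32 FPKM in shNT cells (log2 fold change 0.97, SE 0.09, adjusted p = 7.62e-06, edgeR). The MAX dimerisation repressors MXI1, MXD1 and MXD4 rose by 1.11, 0.91 and 0.76, and MYC by 0.35 to 242.5 and 242.6 FPKM in shCYP1B1 cells against 195.3 and 198.3 FPKM in shNT cells. MAX itself was at -0.06 (adjusted p = 0.520). In RKO CYP1B1 cells 1 of the 9 was called higher and 3 lower, where 13.8% of all genes were called in each direction and 27.6% in either. MXD1 fell there by 1.44, MYCL by 0.53 and MXI1 by 0.41, while MXD4 rose by 0.67, as it had in shCYP1B1 cells. The RKO calls of MYCL and MXI1 were lost without either RKO control library. That of MXI1 was also lost with the RKO libraries alone (adjusted p = 0.0650, edgeR). The number called lower changed when overexpression replicate 1 or 2 was left out, as did the share of all genes.

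Of the 7 tested arrestin relatives and ubiquitin ligases, 5 were called higher and 1 lower in shCYP1B1 cells (median 0.34), against 25.3% of all genes each way. ARRDC1, which recruits ligases for vesicle budding, rose by 0.48 and the ligase gene NEDD4 by 0.45, while ARRDC2 rose by 0.34, a call lost without any 1 of the 4 SW480 libraries (adjusted p up to 0.111). In RKO CYP1B1 cells 0 were called higher in edgeR or DESeq2 (1 at an unadjusted p under 0.05) and 3 lower in edgeR. Over all genes 13.8% were called each way. The 0 called higher did not hold without overexpression replicate 1. NEDD4 fell to 6.27 FPKM in RKO CYP1B1 cells against 11.7 FPKM in RKO control cells, by 0.88 on the log2 scale (SE 0.09, adjusted p = 1.04e-04, edgeR).

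The thioredoxin and peroxiredoxin genes did not share a direction in SW480 cells, with 5 of 14 called higher and 5 lower, against 25.3% of all genes each way. TXN, the thioredoxin that TXNIP binds, fell to 289.8 and 293.7 FPKM in shCYP1B1 cells, against 387.7 and 372.6 FPKM in shNT cells (log2 fold change -0.34, SE 0.07, adjusted p = 0.00127, edgeR). Thioredoxin reductase TXNRD1 rose by 0.34, sulfiredoxin SRXN1 by 0.79 and peroxiredoxin PRDX1 by 0.32. In RKO CYP1B1 cells 7 of 14 were called higher and 1 lower, against 13.8% of all genes each way. The numbers called shifted when an overexpression replicate was left out. TXN rose to 422.8 and 435.9 FPKM in RKO CYP1B1 cells, against 329.4 and 317.1 FPKM in RKO control cells (log2 fold change 0.43, adjusted p = 8.98e-04, edgeR). PRDX1 rose by 0.85 and TXNRD1 fell by 0.35.

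Beyond TXNIP and ARRDC4, textbook targets of MondoA or ChREBP were mixed. Of 19 tested, 8 were called higher and 4 lower in shCYP1B1 cells (median 0.13), and 6 higher and 3 lower in RKO CYP1B1 cells (median 0.04). Over all genes 25.3% were called each way in SW480 and 13.8% each way in RKO. The shares called lower were thus near the background in both lines, and the shares called higher were above it. Neither was tested as a set. The transketolase gene TKT rose to 330 FPKM in shCYP1B1 cells against 188 FPKM in shNT cells (log2 fold change 0.85, SE 0.07, adjusted p = 2.15e-06, edgeR). KLF10, a glucose-induced repressor, fell by 0.40 in shCYP1B1 cells and by 0.72 in RKO CYP1B1 cells. HK2, a hexokinase common in tumours, was at -0.02 in SW480 (adjusted p = 0.873). It fell by 0.27 in RKO CYP1B1 cells (adjusted p = 0.0203, edgeR), a call lost with the RKO libraries alone (adjusted p = 0.110, edgeR). The call was also lost without RKO control replicate 1 or either shCYP1B1 library.

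The 15 other tested genes whose promoter windows held the spaced element gave 2 called higher and 2 lower in shCYP1B1 cells (median 0.08), and 2 higher and 5 lower in RKO CYP1B1 cells (median -0.19). These shares lay below the all-gene backgrounds of 25.3% each way in SW480. In RKO the genes called lower were 5 of 15, against 13.8% of all genes, and the number is too small to read further.

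Among 23 genes of glucose uptake and glycolysis, 7 were called higher and 3 lower in shCYP1B1 cells, with a median of -0.04. Both numbers changed when an RKO CYP1B1 library was left out of the fit, as did the shares over all genes. The share called higher was near the 25.3% of all genes, and the share called in either direction was below the 50.6% of all genes. SLC2A1, the glucose transporter gene GLUT1, fell to 263.9 and 258.1 FPKM in shCYP1B1 cells, against 340.1 and 337.8 FPKM in shNT cells (log2 fold change -0.33, SE 0.07, adjusted p = 0.00203, edgeR). The enolase gene ENO2 rose by 1.06. In RKO CYP1B1 cells 10 of 23 were called higher and 3 lower (median 0.26), where 13.8% of all genes were called each way. The number called higher changed when overexpression replicate 1 or 2 was left out, as did the share of all genes. The pyruvate kinase gene PKM rose by 0.88 to 831 ± 121 FPKM in RKO CYP1B1 cells, against 456 ± 31.7 FPKM in RKO control cells (SD, n = 2, adjusted p = 1.13e-04, edgeR). SLC2A1 was at 28.2 and 24.7 FPKM in RKO CYP1B1 cells and 31.6 and 31.8 FPKM in RKO control cells. Its call (-0.24, adjusted p = 0.0261, edgeR) was lost with the RKO libraries alone (adjusted p = 0.143, edgeR). It was also lost without any 1 of the 2 RKO control or 4 SW480 libraries.

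In the pentose phosphate pathway, 2 of 7 were called higher and 2 lower in shCYP1B1 cells, and 3 higher and 0 lower in RKO CYP1B1 cells (median 0.06). The shares in SW480 were near the 25.3% of all genes called each way there, and in RKO 13.8% of all genes were called each way. The 0 held in edgeR, also at an unadjusted p under 0.05, and in DESeq2.

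Of 12 reported regulators of TXNIP transcription, 4 were called higher and 4 lower in shCYP1B1 cells. In RKO CYP1B1 cells 0 were called higher (edgeR, also at an unadjusted p under 0.05, and DESeq2) and 3 lower. The 0 called higher did not hold without overexpression replicate 1. The background was 25.3% of all genes each way in SW480 and 13.8% each way in RKO. VDR, the vitamin D receptor, fell to 22.4 FPKM in shCYP1B1 cells against 48.9 FPKM in shNT cells (log2 fold change -1.08, SE 0.09, adjusted p = 2.51e-06, edgeR). NFYA, a subunit of the CCAAT-binding factor NF-Y, rose by 0.66 in shCYP1B1 cells. FOXO3 fell by 0.61 in RKO CYP1B1 cells. HSF1 was at 0.06 in SW480 and 0.01 in RKO and passed no test in either. NR3C1, the glucocorticoid receptor, had 418 and 410 counts in shCYP1B1 cells and 507 and 441 in shNT cells, and 4 and 2 counts in RKO CYP1B1 cells and 3 and 0 in RKO control cells, so no fold is given for RKO.

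**Figure D4:**
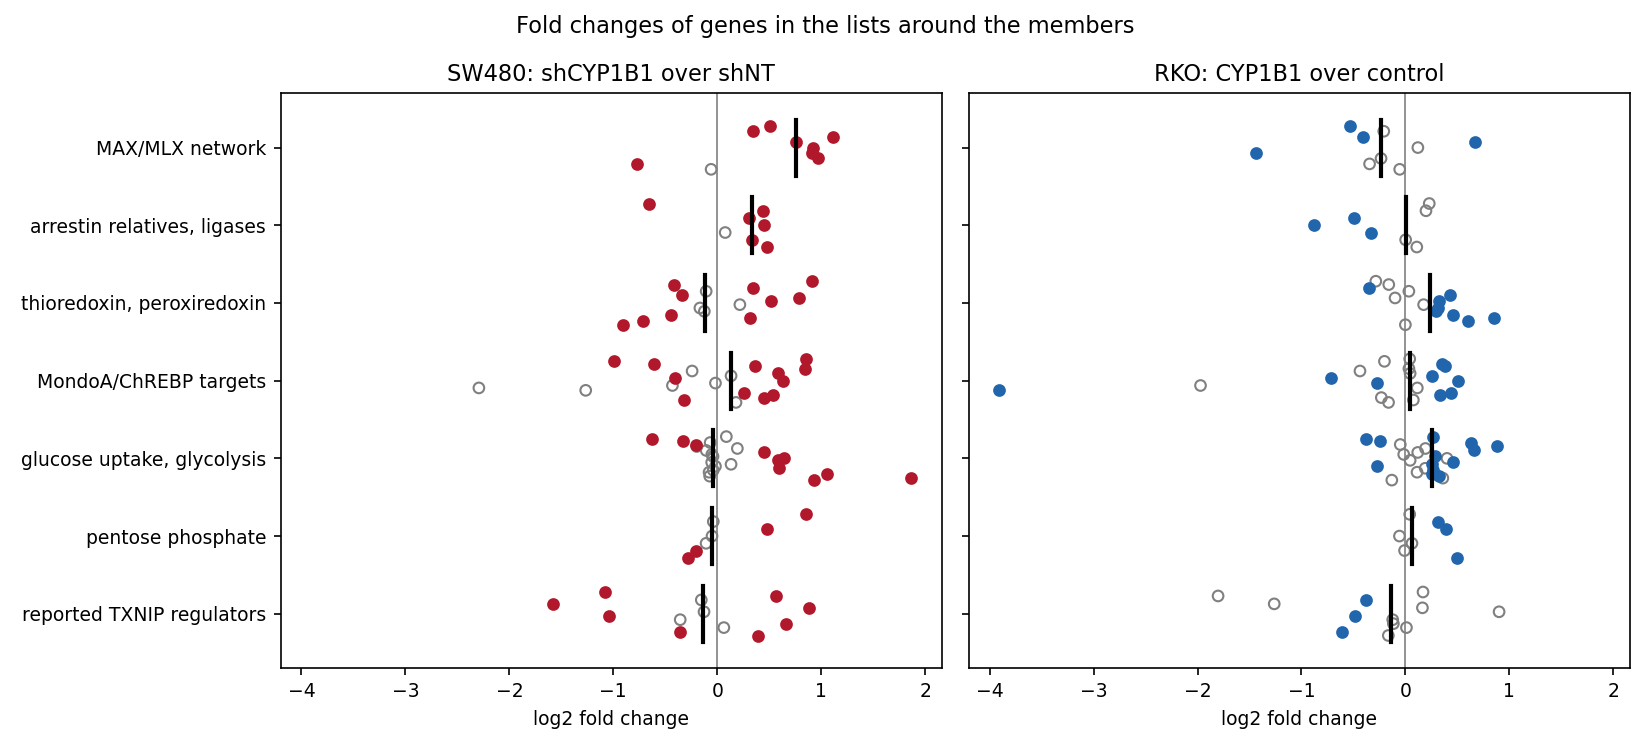
Log2 fold changes (horizontal axis) of the tested genes in 7 lists around the members, for shCYP1B1 over shNT in SW480 on the left and CYP1B1 over control in RKO on the right. Each point is a gene, filled where its adjusted p was under 0.05, and black bars are list medians, which run from -0.14 to 0.76 in SW480 and from -0.23 to 0.26 in RKO.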

How the data were processed

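Groups and replicate numbers came from the sample titles. The authors deposited raw read counts per gene and FPKM for the same genes and libraries, per the file headers. Reads were set against GRCh38.p13, according to the submitters' processing notes, and library preparation used a stranded mRNA kit, per the labels' protocols. Not given in the sources used here are the aligner, the counter, the annotation and any use of strand. FPKM served for levels, and the gene lengths the deposited values imply are 2360 to 8683 bp for the members.

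Counts were filtered with filterByExpr (minimum count 10, minimum total 15) and scaled with TMM. Quasi-likelihood models in edgeR 4.0.16 (R 4.3.3) used all 8 libraries on 4 residual degrees of freedom, with Benjamini-Hochberg adjustment over all genes tested, a threshold of 0.05 and two-sided tests. A standard error is the log2 fold change over the square root of F. Alternatives used DESeq2 1.42.0, limma 3.58.1, other scalings and filters, fewer libraries and a replicate block. Steps were tested on simulated data. A test of the members between shNT and RKO control was planned but is not used, since RKO control chose them. The members, lists and rule for named genes were chosen with earlier results of these data known. The rule names the members, CYP1B1, 11 fixed genes, genes with the smallest p in each list and the 5 nearest to TXNIP by each measure. A gene it selects is not reported here, although counts include it. CD68, EPCAM, KRT20 and the other epithelial markers named were singled out after their values were seen. Locations are from GENCODE 29, and promoters from RefSeq.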

Additional observations from a re-analysis of the deposited data

Results flagged for a closer look

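For the genes named around the members, the effect of high over low CYP1B1 (RKO CYP1B1 over control, and SW480 shNT over shCYP1B1, in log2) was compared between the lines with an interaction term in edgeR, adjusted over all genes. It differed for 15 of the 26 genes compared and for 42.6% of all 14157 genes, and many of the 26 were named for the smallest p of their list in 1 of the lines. Values are the RKO effect minus the SW480 effect. For MNT, MXI1, NEDD4, SRXN1, PKM, NFYA and VDR the effects had the same sign in both lines and differed in size. The other genes named below had opposite signs, although in RKO the effect was only 0.04 for TKT and 0.11 for ARRDC1.

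In the MAX and MLX network the difference was 1.42 for MXD4 (adjusted p = 1.29e-05), 0.74 for MNT (adjusted p = 8.74e-04) and 0.70 for MXI1 (adjusted p = 0.00416). MXD4 had an effect of 0.67 in RKO and -0.76 in SW480.

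Among arrestin relatives and ligases it was 0.59 for ARRDC1 (adjusted p = 0.00165) and -0.42 for NEDD4 (adjusted p = 0.0184). For peroxiredoxin genes it was 1.17 for PRDX1 (adjusted p = 8.55e-06) and 0.69 for SRXN1 (adjusted p = 1.86e-04).

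Among metabolic genes and MondoA targets it was 1.32 for ENO2 (adjusted p = 1.02e-05), 0.89 for TKT (adjusted p = 2.76e-05), 0.68 for PKM (adjusted p = 0.00123), -1.12 for KLF10 (adjusted p = 1.32e-05) and -0.58 for SLC2A1 (adjusted p = 8.13e-04). Among reported TXNIP regulators it was 0.55 for NFYA (adjusted p = 0.00222), -0.91 for VDR (adjusted p = 2.13e-04) and -0.97 for FOXO3 (adjusted p = 1.32e-04).

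MLX had an effect of 0.10 in RKO and -0.40 in SW480, a difference of 0.51 that was not tested. The groups of each line did not overlap. In RKO, however, the lower CYP1B1 library lay only just above the higher control library, so the values show no clear change of MLX there. The share of all genes that separate in this way is not given, and the RKO libraries also chose the set.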

How the results depend on the processing

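In SW480, the rises of TXNIP (4.24 to 4.36), ARRDC4, ARRDC3 and MLX kept their direction and call under all 18 alternatives. MLXIPL in SW480 reversed to -0.014 with library size only, to -0.010 with limma on log2(FPKM + 1) and to -0.012 on log2(FPKM + 0.1), and ranged from -0.050 to 0.12 with each library left out. MLXIP in SW480 was called at -0.26 with the SW480 libraries alone, and also when RKO CYP1B1 replicate 1 or 2 was left out. It was called too without both of them, an alternative chosen after seeing the data. With each library left out it ranged from -0.31 to -0.20. Between shNT cells and RKO control cells, ARRDC4 was at -2.04 with limma on log2(FPKM + 1). There the members' values otherwise moved by less than the replicate SD pooled over all 4 groups, which includes the uneven RKO CYP1B1 pair. TXNIP ranged there from -3.07 to -2.98, more than its replicates differed in RKO control cells (0.020 in log2) or shNT cells (0.0020). For RKO CYP1B1 over RKO control cells, TXNIP was at -1.33 and ranged from -2.42 to -0.72 with each library left out. MLXIP was at 0.30 and ranged from -0.10 to 0.61, so its sign was not kept. ARRDC4 (-1.24 to -0.68), ARRDC3 (-1.11 to -0.49), MLXIPL (-1.36 to -0.51) and MLX (0.05 to 0.15) kept theirs.

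The number of genes called in RKO was 3907, 2236 with the RKO libraries alone, and 1769 to 5621 with each library left out, fewest without control replicate 2 and most without overexpression replicate 1. In SW480 it was 7167 and ranged from 5132 to 8965. Replicate numbers did not pair the samples (correlations of deviations -0.00087 in SW480 and -0.043 in RKO), and with the replicate block the counts were 6960 in SW480, 3810 in RKO and 10768 between the lines.

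Of 928 further values, for 27 named genes under the alternatives, 865 kept direction and call. HK2 in SW480 reversed to 0.0083 with RLE scaling and with DESeq2, and ranged from -0.052 to 0.024 with each library left out, over which MAX ranged from -0.11 to 0.010. In RKO, ARRDC2 reversed to -0.00046 with RLE scaling, -0.00044 with DESeq2, -0.015 with library size only, -0.015 with limma on log2(FPKM + 1) and -0.016 on log2(FPKM + 0.1), and ranged from -0.11 to 0.10 with each library left out. HSF1 in RKO reversed to -0.0080 with library size only, -0.0098 with limma on log2(FPKM + 1) and -0.0099 on log2(FPKM + 0.1), and ranged from -0.072 to 0.087, and TKT in RKO ranged from -0.0059 to 0.095. Calls lost with 1 library left out included those of ARRDC2, MYCL and FOXO3 in SW480 and of SLC2A1, HK2, MXI1, MYCL and ENO2 in RKO. Those of SLC2A1, HK2, MXI1 and ENO2 in RKO were also lost with the RKO libraries alone. The cause of these changes was not tested. Having 2 libraries per group, with an uneven RKO CYP1B1 pair, limits all fold changes in RKO.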
